A study of Mus musculus with 36 samples.

Results

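The expression of 41 genes that copy DNA or supply its building blocks was followed in the BV-2 line, an immortalized murine microglial cell line, after lipopolysaccharide (LPS), alone or joined by 1 of 3 drugs. The drugs were the multiple sclerosis medicine dimethyl fumarate (DMF), its hydrolysis product monomethyl fumarate (MMF) and the plant cannabinoid cannabidiol (CBD). The genes were picked by symbol: every row of the deposited tables whose symbol equalled a listed member was taken, all 41 were found, and they stand among 19879 genes in the series. All 41 passed the filter on low values in every comparison. The wild-type BV-2 cells formed 12 groups of 3 libraries, 36 in all. At 4 h and at 24 h they received the vehicle DMSO alone, the vehicle ethanol (EtOH) alone, LPS from Escherichia coli at 600 ng/mL, or the same LPS plus a drug, which was DMF at 30 µM, MMF at 30 µM or CBD at 6 µM. DMF and MMF were dissolved in DMSO, CBD in ethanol and LPS in water, and vehicle was held at 0.2% throughout. Serum in the medium was lowered just before treatment in the LPS experiments. The labels do not say whether the cells given vehicle alone had this change too, nor which solvent the cells given LPS alone received. The series describes 3 independent experiments, and each group holds 3 libraries of the line.

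Before a cell divides it copies its genome in S phase. In G1 the origin recognition complex, with Cdc6 and Cdt1, loads the ring-shaped Mcm2 to Mcm7 helicase at origins, and geminin (Gmnn) blocks reloading by binding Cdt1. Mcm10, Cdc45 and the GINS complex then turn the loaded ring into an active helicase, primase and polymerase alpha lay the first primers, and polymerases delta and epsilon extend them on the sliding clamp Pcna, which the Rfc1 to Rfc5 loader places on DNA. Ribonucleotide reductase, thymidylate synthase and thymidine kinase 1 feed the fork with deoxynucleotides. Most of these genes are transcribed near the G1 to S transition by E2F factors, so their summed transcript level in a culture is widely read as a mark of cycling cells. BV-2 cells are immortalized and divide in culture, unlike most microglia in the adult brain.

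The libraries held 14.11 M to 26.68 M reads assigned to genes, with a median of 16.23 M. Of the microglia and macrophage markers, Csf1r lay between 4620 and 15400 normalized reads and Itgam between 1200 and 3630, whereas Aif1 (23.9 to 165) and Tmem119 (19.1 to 223), which marks resident microglia, were low. The neuronal genes Rbfox3 and Stmn2 and the oligodendrocyte gene Mog reached at most 1.2 normalized reads. Levels are given as normalized read counts on a scale set jointly for all 36 libraries, and fold changes and tests come from the tables deposited for each pair of groups. A gene was called changed at a Benjamini-Hochberg adjusted p below 0.05 in limma over all genes tested, with no limit on fold. Because RNA was measured in bulk, fewer cells in S phase and less of each transcript per cell cannot be told apart. The strand setting of the counting is not given in the sources used here. At 12 members over 10% of the exon bases lie within exons of other genes, the same and the opposite strand each taken alone. At 7 members over 10% of transcript windows have a near-identical copy elsewhere in the genome. The reads of 15 members could thus be shared to this extent. For each comparison with called members, the main count is also given for the other 26, where overlap or copies reach at most 10%.

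Together the 41 genes took 0.162% to 0.533% of each library's gene reads. Their share was 0.483% ± 0.0336 (SD, n = 3) with DMSO and 0.509% ± 0.0266 with EtOH at 4 h, and 0.419% ± 0.0283 with LPS at 4 h. At 24 h it was 0.303% ± 0.0272 with DMSO, 0.306% ± 0.0425 with EtOH, 0.337% ± 0.0424 with LPS and 0.309% ± 0.0415 with MMF and LPS. The lowest shares were those of DMF with LPS at 24 h, 0.226% ± 0.0349, and of CBD with LPS at 24 h, 0.181% ± 0.0221. The CBD libraries at 24 h (0.162% to 0.205%) and the LPS libraries at 24 h (0.291% to 0.374%) did not overlap, whereas those of LPS, MMF, DMSO and EtOH at 24 h did. Per kilobase of exon, median levels over the 36 libraries ran from 28.5 normalized reads for Fen1, the flap nuclease, to 1.23e+03 for Rrm2, the small subunit of ribonucleotide reductase. Mcm3 followed at 952 per kilobase and Dut, which removes dUTP from the nucleotide pool, at 736.

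**Figure D1:**
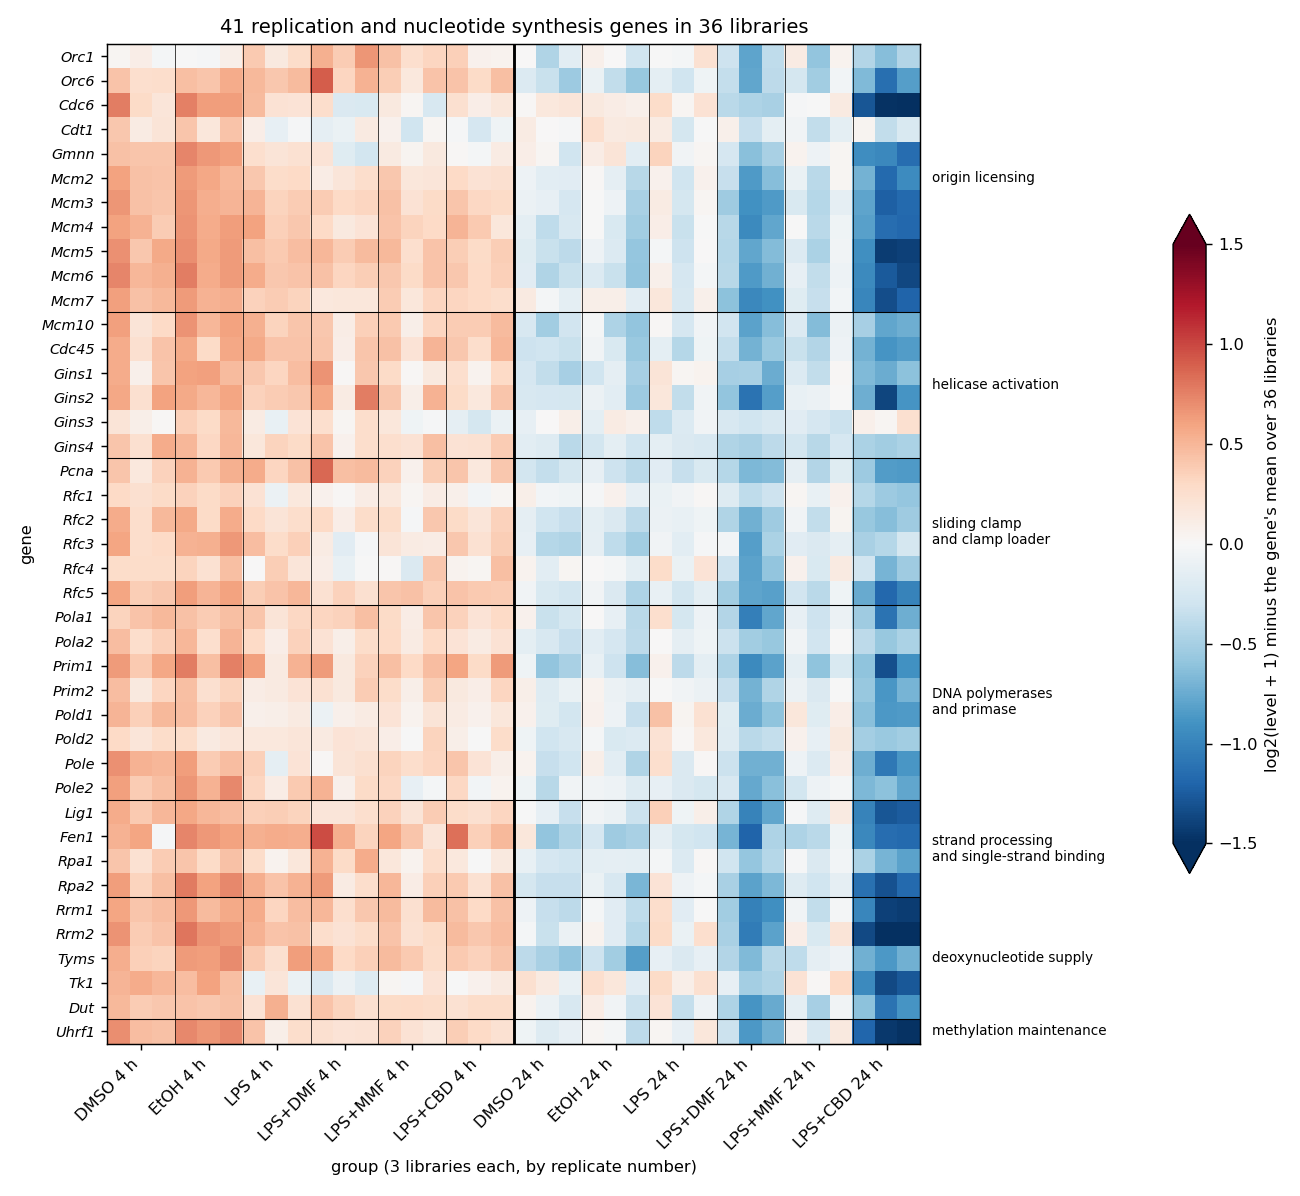
Heat map of the 41 genes (rows, grouped by role) in the 36 libraries (columns, 3 per group, 4 h left of the thick line and 24 h right of it). Colour is log2(level + 1) minus the gene's mean over all 36 libraries, capped at 1.5 in either direction. The 4 h columns are mostly red and the 24 h columns mostly blue, with the darkest blue in the LPS+CBD columns at 24 h, where Cdc6 and Rrm2 stand out and Gins3 and Cdt1 do not.

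The 250 bases before the start of each gene's canonical transcript (GRCm39) were searched on both strands for E2F-type words and for CCAAT. The E2F-type words were TTTCCCGC, TTTGGCGC, TTTCGCGC and TTTGCCGC. An E2F-type word was present at 5 of 41 members (12.2%), Gmnn, Mcm4, Mcm5, Mcm6 and Pola1, against 462 of 17997 promoters of protein-coding genes (2.57%). The CCAAT box was found at 20 of 41 members (48.8%) against 35.6% of all promoters. A match is a description of the letters only, and the members without a match include some of the most reduced genes, such as Rrm2 and Cdc6. Shown 5′ to 3′ on the gene's strand, with E2F-type words on either strand in capitals, are Mcm4, Mcm5, Pola1 and Gins3. The licensing helicase gene Mcm4 has separate words (chr16:15455265-15455514, minus strand). Its partner Mcm5 has overlapping words (chr8:75835890-75836139, plus strand). Pola1 is the catalytic subunit of polymerase alpha (chrX:92675814-92676063, minus strand). Gins3, like most members, holds no such word (chr8:96359831-96360080, plus strand).
Mcm4: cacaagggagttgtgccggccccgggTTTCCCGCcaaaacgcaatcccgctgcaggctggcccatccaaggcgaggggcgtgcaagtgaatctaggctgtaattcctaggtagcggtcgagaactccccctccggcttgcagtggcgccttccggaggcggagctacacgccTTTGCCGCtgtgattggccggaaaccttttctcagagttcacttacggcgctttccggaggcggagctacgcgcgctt
Mcm5: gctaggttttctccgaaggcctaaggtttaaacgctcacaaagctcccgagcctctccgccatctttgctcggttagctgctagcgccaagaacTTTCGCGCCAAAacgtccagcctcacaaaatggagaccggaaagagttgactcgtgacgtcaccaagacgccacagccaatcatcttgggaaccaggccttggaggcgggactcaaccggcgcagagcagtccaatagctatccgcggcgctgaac
Pola1: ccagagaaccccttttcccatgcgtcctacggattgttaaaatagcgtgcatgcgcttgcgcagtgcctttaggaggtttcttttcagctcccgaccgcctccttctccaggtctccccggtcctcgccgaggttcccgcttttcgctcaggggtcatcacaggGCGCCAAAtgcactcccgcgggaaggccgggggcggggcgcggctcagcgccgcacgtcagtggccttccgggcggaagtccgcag
Gins3: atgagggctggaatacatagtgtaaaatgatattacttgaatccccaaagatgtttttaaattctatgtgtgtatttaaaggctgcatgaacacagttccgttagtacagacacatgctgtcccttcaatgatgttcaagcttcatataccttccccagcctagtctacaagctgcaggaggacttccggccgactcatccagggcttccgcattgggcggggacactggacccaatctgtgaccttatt
In Mcm4 the words begin 224 and 78 bases before the transcript start, in Mcm5 156 and 152 bases before it, and in Pola1 86 bases before it.

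CBD with LPS was compared with LPS alone to ask what the cannabinoid added to the activated state. At 24 h, 39 of the 41 genes were lower with CBD and 1, Gins3, was higher, where 24.8% of all genes tested were called lower and 23.9% higher. The median of the 41 log2 fold changes was -0.77, and folds ran from 0.274 to 1.26. At 40 of the 41 genes the 3 CBD libraries did not overlap the 3 LPS libraries, which was so at 58.7% of all genes tested. Of the 26 members free of overlap and copies, 25 were called.

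All 5 of 5 deoxynucleotide genes were lower with CBD, with a median log2 fold change of -1.29, the lowest median among the 6 roles with more than 1 gene. Rrm2 read 4249, 3227 and 4125 in the LPS libraries and 1362, 947 and 892 in the CBD libraries at 24 h. Every CBD library was far below every LPS library, and the fold was 0.274 (log2 -1.87, SE 0.162, adjusted p = 2.9e-05, limma). A lncRNA on the other strand covers 43.3% of the exon bases of Rrm2. Tk1, thymidine kinase 1 of the salvage pathway, read 1130, 984 and 1093 with LPS and 474, 361 and 382 with CBD. The Tk1 groups did not overlap, at a fold of 0.38 (SE 0.116 on the log2 scale, adjusted p = 2.39e-05, limma), and 46.2% of its transcript windows have a copy elsewhere. Rrm1, the large reductase subunit and free of both, fell by 1.29 on the log2 scale, whereas Tyms, which makes dTMP, fell by 0.61 and Dut by 0.79.

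Of the 11 licensing genes, 10 were lower with CBD (median log2 -1.02). Cdc6, the loader of the helicase ring, read 691, 585 and 666 with LPS and 235, 204 and 184 with CBD. No CBD library reached the lowest LPS library, and the fold was 0.322 (log2 -1.63, SE 0.121, adjusted p = 1.34e-05, limma). The helicase subunits Mcm2 to Mcm7 fell by 0.88 to 1.17 on the log2 scale, and geminin fell by 1.11. Cdt1, which works with Cdc6 at the origin, was not called. It read 1935, 1474 and 1771 with LPS and 1824, 1369 and 1511 with CBD, so the groups overlapped, and its log2 difference was -0.14 with a 95% interval of -0.425 to 0.154.

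The helicase activators were the exception among the roles, with 5 of 6 lower, 1 higher and a median log2 of -0.58. Gins1 and Gins2 fell by 0.76 and 0.92 and Gins4 by 0.28 on the log2 scale. Gins3, a subunit of the same 4-part complex, read 381, 430 and 476 with LPS and 521, 505 and 587 with CBD. The lowest CBD library was above the highest LPS library, at a fold of 1.26 (log2 0.33, SE 0.11, adjusted p = 0.0311, limma). This call was lost when any of 4 libraries was left out: the adjusted p (limma) was 0.0585 without CBD replicate 1, 0.103 without CBD replicate 3, 0.103 without LPS replicate 1 and 0.0564 without LPS replicate 2. At 24 h its level was 538 ± 43.7 (SD, n = 3) with CBD, 493 ± 37.5 with DMSO alone and 504 ± 50.1 with EtOH alone, and these 3 groups overlapped.

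At the fork itself all 6 clamp and loader genes, all 8 polymerase and primase genes and all 4 strand-processing genes were lower with CBD. The clamp Pcna and its loader fell by amounts from 0.31 for Rfc3 to 0.80 for Rfc5 on the log2 scale. The polymerase and primase genes had a median of -0.71, from -0.41 for Pola2 to -1.01 for Pold1, the catalytic subunit of polymerase delta. Lig1, which seals the nicks between lagging-strand fragments, fell by 1.31, Rpa2 of the single-strand binding complex by 1.23, Fen1 by 0.86 and Rpa1 by 0.59. Uhrf1, which guides methylation of the newly made strand, was at a fold of 0.38 (adjusted p = 1.47e-05, limma), and 46.4% of its transcript windows have a copy elsewhere.

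**Figure D2:**
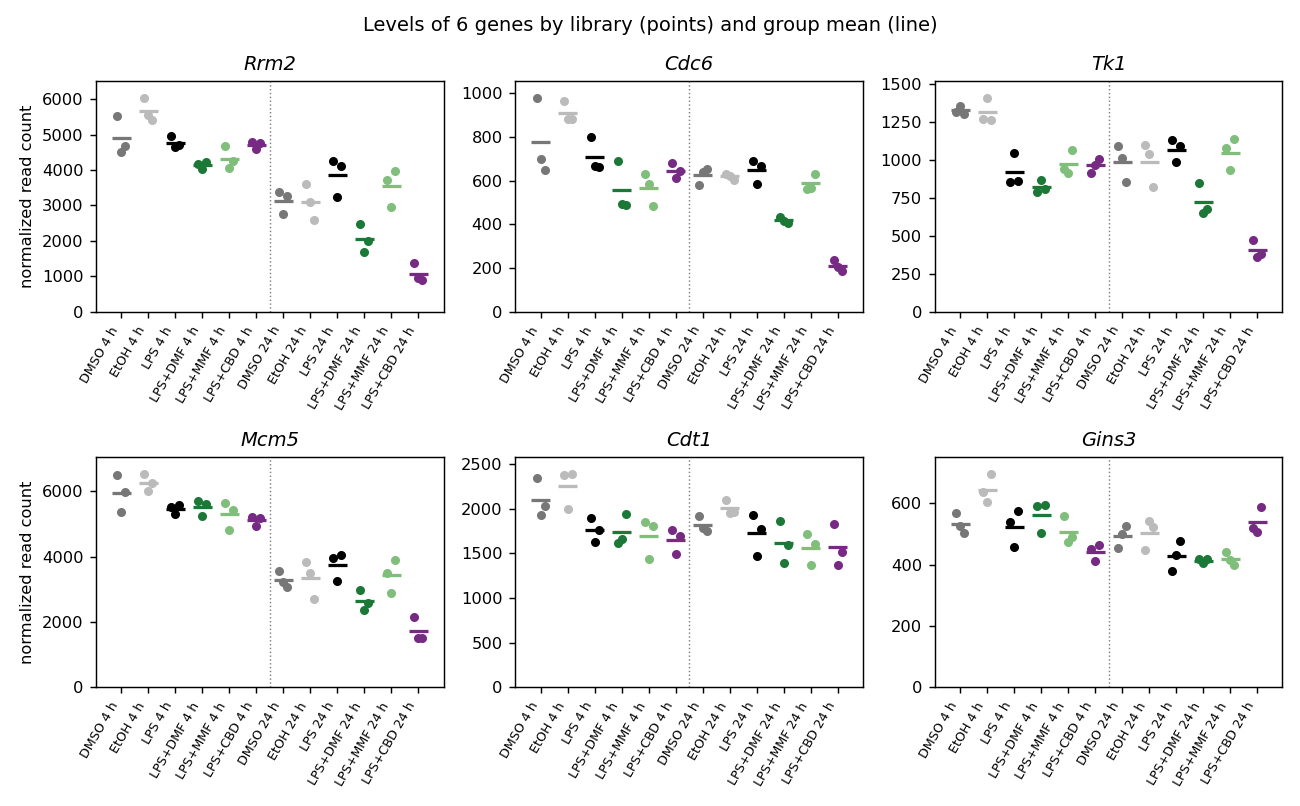
Normalized read counts of 6 genes in all 36 libraries (points) with the group means (lines), 4 h left and 24 h right of the dotted line, each axis starting at 0. Rrm2, Cdc6, Tk1 and Mcm5 have their lowest 3 libraries in the LPS+CBD group at 24 h, while the groups overlap for Cdt1 and the 24 h LPS+CBD libraries of Gins3 lie above those of LPS alone.

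DMF is the dimethyl ester and MMF the monomethyl ester of fumaric acid, and both were given at 30 µM. With DMF and LPS at 24 h, 33 of the 41 genes were lower than with LPS alone and 0 higher, where 13.2% of all genes tested were called lower. All 41 log2 fold changes were negative, with a median of -0.56 and folds from 0.526 to 0.967. Of the 26 members free of overlap and copies, 20 were called. The libraries did not overlap at 36 of the 41 genes, against 42.4% of all genes tested. Leaving out 1 library at a time, the number of members called ranged from 22 to 37.

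Rrm2 read 2481, 1676 and 1982 with DMF at 24 h, each below the 3 LPS libraries given above, at a fold of 0.526 (log2 -0.93, SE 0.146, adjusted p = 0.00193, limma). Lig1 read 1992, 1488 and 1646 with LPS and 1135, 773 and 901 with DMF, at a fold of 0.545 (log2 -0.88, SE 0.146, adjusted p = 0.0025, limma). Rrm1 read 3761, 2790 and 3116 with LPS and 2179, 1559 and 1658 with DMF, at a fold of 0.556 (log2 -0.85, SE 0.14, adjusted p = 0.00239, limma). In all 3 the groups were apart. By role, 9 of 11 licensing genes, 3 of 6 helicase activators, 5 of 6 clamp genes, 7 of 8 polymerase and primase genes, 3 of 4 strand-processing genes, 5 of 5 deoxynucleotide genes and Uhrf1 were lower. The 8 not called were Orc6, Cdt1, Cdc45, Gins3, Gins4, Rfc3, Pole2 and Fen1, with log2 differences from -0.05 for Gins3 to -0.56 for Fen1. Same-numbered libraries deviated together in this comparison too. With the replicate number as a block (paired fit), Orc6, Cdc45, Gins4, Rfc3, Pole2 and Fen1 were called lower as well. Their adjusted p in that fit ran from 0.00531 for Orc6 to 0.0495 for Pole2 (limma).

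The DMF and CBD comparisons share the same LPS libraries, so their values are set side by side only. The fold of Rrm2 was 0.526 with DMF and 0.274 with CBD, that of Cdc6 0.648 and 0.322, that of Tk1 0.673 and 0.38, and that of Uhrf1 0.633 and 0.38. For Pola2 the folds were 0.753 with DMF and 0.752 with CBD, for Rfc2 0.718 and 0.714, and for Pola1 0.605 and 0.59. DMF was given at 30 µM and CBD at 6 µM, in different solvents.

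**Figure D3:**
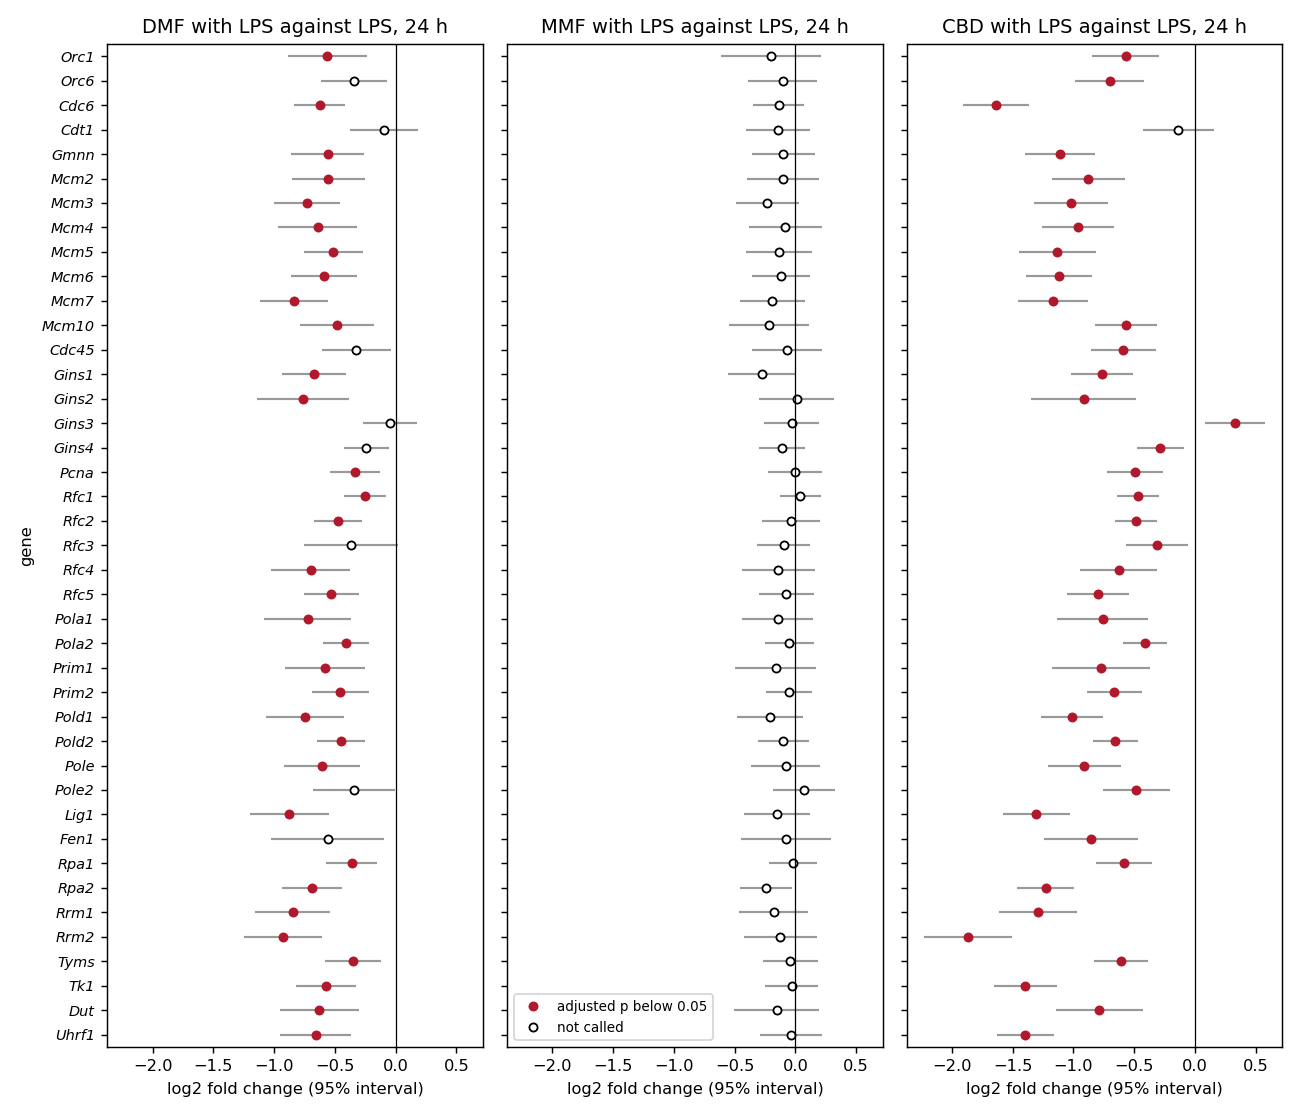
Log2 fold change of each of the 41 genes (rows) against LPS alone at 24 h for DMF, MMF and CBD, with 95% intervals (bars); filled points have an adjusted p below 0.05. With DMF 33 genes and with CBD 40 genes are filled, Gins3 being the filled point right of 0, while the MMF panel has no filled point.

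With MMF and LPS, 0 of the 41 genes were called against LPS alone at 24 h, where 0% of all genes tested were called. By edgeR and DESeq2 the number of members called was 0 as well, and 1 member had an unadjusted p below 0.05 in limma. The log2 changes had a median of -0.10 and 38 of the 41 were negative, and the widest limits of their 95% intervals were -0.614 and 0.329. Rrm2 read 3705, 2962 and 3982 with MMF, and these libraries overlapped those of LPS alone. Same-numbered libraries deviated together in this comparison. With the replicate number as a block (paired fit), 2 members were called lower, where 0.665% of all genes were in that fit: Mcm3 (log2 -0.23, SE 0.0507, adjusted p = 0.0154, limma) and Pold1 (log2 -0.21, SE 0.0514, adjusted p = 0.0332, limma).

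The esters were compared directly at both times, 2 pairs in all, with p-values adjusted over all genes of each pair. At 24 h, 28 of the 41 genes were lower with DMF than with MMF and 0 higher, where 11.4% of all genes tested were called lower. The median log2 difference was -0.45. Of the 26 members with at most 10% overlap or copies, 17 were called. Rrm2 was lower in every DMF library than in any MMF library (log2 -0.80, SE 0.147, adjusted p = 0.00574, limma). Gins2 read 202, 141 and 172 with DMF and 281, 287 and 304 with MMF (log2 -0.77, SE 0.134, adjusted p = 0.00464, limma), and 67.3% of its exon bases are shared with an opposite-strand gene. Lig1 read 1536, 1355 and 1700 with MMF, all above its DMF libraries (log2 -0.72, SE 0.137, adjusted p = 0.00654, limma). The count depended on which libraries were fitted: leaving out DMF replicate 2 gave 11, DMF replicate 3 gave 5, MMF replicate 1 gave 10 and MMF replicate 3 gave 6. Over all omissions of 1 library the median log2 difference lay between -0.54 and -0.36. For the 13 not called, the widest limits of the 95% interval of the difference were -0.973 and 0.309. In the paired fit (replicate block) Orc1, Orc6, Mcm10, Cdc45, Gins1, Prim1, Pole2, Fen1 and Tyms were called lower with DMF as well. Their adjusted p in that fit ran from 0.00107 for Prim1 to 0.0474 for Fen1 (limma). Cdt1 differed by 0.05 and Gins3 by -0.02.

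At 4 h no member was called with any drug when all 6 libraries of each pair of groups were fitted without a block. Of the 41 genes, 0 were called with DMF, where 11.1% of all genes tested were called in either direction, 0 with MMF (0.122% of all genes) and 0 with CBD (0.00875%). By edgeR and DESeq2 these counts were 0 too. DMF against MMF gave 0 of 41 (8.34% of all genes). The widest 95% limits were -0.493 (Gmnn) and 0.654 (Fen1), so differences of that size between the esters at 4 h are within the error for these members. Folds at 4 h lay between 0.761 and 1.22 for DMF, 0.802 and 1.12 for MMF, and 0.852 and 1.07 for CBD. In the paired fit (replicate block) of DMF against LPS, 3 members were called, where 15.1% of all genes were in that fit in either direction: Cdc6 (log2 -0.36), Rfc3 (log2 -0.39) and Rpa1 (log2 0.29). Their unpaired adjusted p in limma was 0.167, 0.0655 and 0.101. The DMF count at 4 h was 3 without DMF replicate 1 and 1 without DMF replicate 2, and that of DMF against MMF was 1 without DMF replicate 2.

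LPS alone was compared with each vehicle. The LPS and vehicle libraries carry different replicate numbers. Any difference that goes with the numbering cannot be told apart from that of LPS. At 4 h 3 of 41 were lower than with DMSO, which is close to the 6.38% of all genes tested that were called lower. Against EtOH 9 of 41 were lower, where 4.48% of all genes were. None of the 41 was called higher in either. Tk1 read 1319, 1359 and 1303 with DMSO, 1270, 1408 and 1266 with EtOH and 857, 1047 and 862 with LPS. The LPS libraries lay below both vehicles, at a log2 change of -0.54 against DMSO (SE 0.0921, adjusted p = 0.0067, limma) and -0.51 against EtOH (SE 0.096, adjusted p = 0.0129, limma). Pold1 read 2724, 2449 and 2678 with DMSO, 2652, 2445 and 2580 with EtOH and 2019, 2032 and 2108 with LPS, and was called against both (log2 -0.35 and -0.32). The third against DMSO was Pole, the catalytic subunit of polymerase epsilon, at 1612, 1445 and 1422 with DMSO and 1285, 918 and 1164 with LPS (log2 -0.43).

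Against EtOH the other 7 were Cdc6, Cdt1, Gmnn, Mcm2, Mcm7, Rrm2 and Uhrf1. Gmnn read 724, 684 and 670 with EtOH and 520, 499 and 510 with LPS (log2 -0.44), and Uhrf1 3883, 3716 and 3874 with EtOH and 3162, 2508 and 2838 with LPS (log2 -0.44). Both genes were apart in every library. The counts at 4 h depended on single libraries. The DMSO comparison gave 1 when DMSO replicate 6 was left out, and the EtOH comparison gave 2 when LPS replicate 3, EtOH replicate 4 or EtOH replicate 6 was. Among the genes shown, Tk1 (adjusted p = 0.0642, limma) and Uhrf1 (0.0644) were no longer called against EtOH without LPS replicate 3, and Uhrf1 was lost without EtOH replicate 4 or 6 as well. Against DMSO the omission of DMSO replicate 6 ended the call of Pold1 (adjusted p = 0.0555, limma), and that of LPS replicate 3 or any DMSO library ended that of Pole (adjusted p from 0.0964 to 0.123). Of the 26 members free of overlap and copies, 2 were called against DMSO and 3 against EtOH.

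The members called at 24 h were higher with LPS. Against DMSO 5 of 41 were higher with LPS, where 12.1% of all genes tested were called higher, and against EtOH 4 of 41, where 10.8% were and 0 were lower. Both counts were close to the share among all genes. Gins1 read 295, 263 and 268 with LPS, 217, 199 and 182 with DMSO and 209, 234 and 182 with EtOH, so that each LPS library exceeded every vehicle library (log2 0.48 against DMSO, SE 0.115, adjusted p = 0.0118; log2 0.42 against EtOH, SE 0.126, adjusted p = 0.0371, limma). Tyms read 429, 403 and 431 with LPS, 357, 335 and 312 with DMSO and 379, 328 and 265 with EtOH (log2 0.35 and 0.40). Pold1 read 2606, 1975 and 2253 with LPS, 2007, 1688 and 1584 with DMSO and 2013, 1826 and 1512 with EtOH (log2 0.38 and 0.36), and its LPS and vehicle libraries overlapped. Pold2, the accessory subunit of the same polymerase, was called against both (log2 0.35 and 0.29). Rpa2 was called against DMSO, at 1143, 938 and 970 with LPS and 822, 778 and 779 with DMSO (log2 0.37).

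The 24 h counts also depended on single libraries. In the DMSO comparison the omission of LPS replicate 1 gave 3, that of LPS replicate 2 gave 14, LPS replicate 3 gave 2, DMSO replicate 5 gave 1 and DMSO replicate 6 gave 0. In the EtOH comparison the omission of LPS replicate 1 gave 1, that of LPS replicate 2 gave 7, LPS replicate 3 gave 0, EtOH replicate 4 gave 7, EtOH replicate 5 gave 1 and EtOH replicate 6 gave 0. Without LPS replicate 1 the member called against EtOH was lower with LPS. Against DMSO the call of Pold1 was lost without any of 4 libraries (adjusted p from 0.0848 to 0.13, limma), that of Rpa2 without DMSO replicate 5 or 6 (0.0507 and 0.0547) and that of Gins1 without DMSO replicate 6 (0.056), and against EtOH Gins1, Tyms and Pold1 each lost theirs without any of 4 libraries (adjusted p from 0.0674 to 0.188). Of the 26 members free of overlap and copies, 4 were called against DMSO and 3 against EtOH.

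Between the vehicles no member was called without a block: 0 of 41 between DMSO and EtOH at 4 h (0% of all genes) and 0 of 41 at 24 h (0.00854% of all genes), with median log2 differences of -0.07 and -0.01. DESeq2 and edgeR called 0 members in both. In the paired fit at 4 h (replicate block) 8 members were called lower with DMSO than with EtOH, where 3.81% of all genes were in that fit. They were Gmnn, Mcm10, Gins3, Pcna, Rpa2, Rrm2, Tyms and Uhrf1, by 0.16 to 0.27 on the log2 scale.

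**Figure D4:**
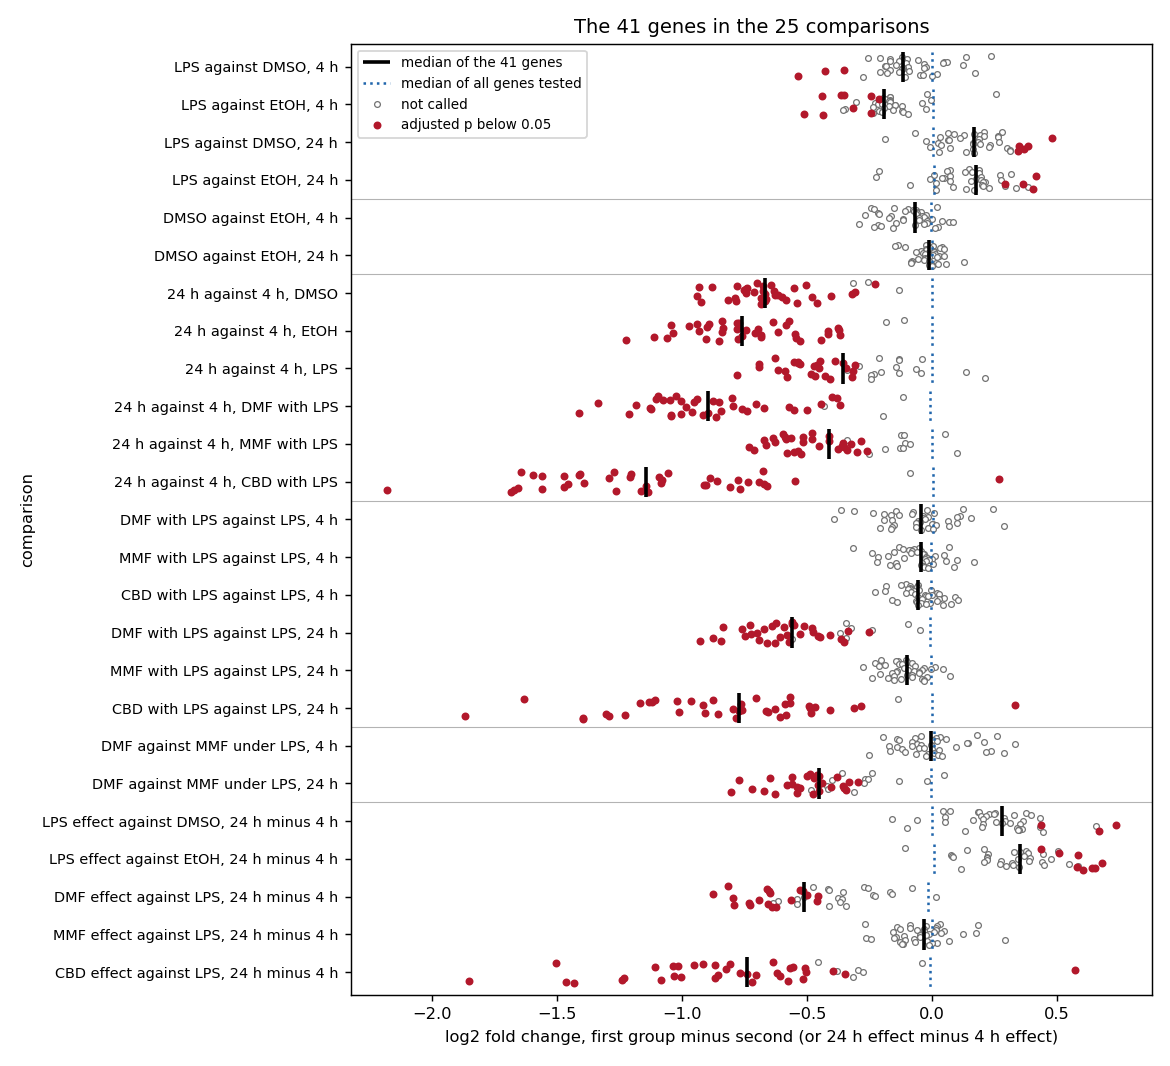
Log2 fold changes (horizontal axis) of the 41 genes in each comparison (rows), first group named minus second; filled points have an adjusted p below 0.05, the black bar is the median of the 41 and the dotted line the median of all genes tested. The medians of the 41 lie left of 0 in all 6 comparisons of 24 h with 4 h, at -0.56 for DMF and -0.77 for CBD against LPS at 24 h, and right of 0 for LPS against either vehicle at 24 h.

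Within each treatment the genes were lower at 24 h than at 4 h. In the vehicle groups 38 of 41 were called lower for DMSO (25.8% of all genes tested) and 39 for EtOH (29.5%). In cells given LPS the count was 25 without a drug (24.3%), 38 for DMF (29.1%), 30 for MMF (24.3%) and 39 for CBD (31.6%). Gins3 with CBD was the 1 member called higher, where 31.6% of all genes were called higher too. The median log2 change was -0.67 for DMSO and -0.76 for EtOH. Under LPS it was -0.36 without a drug, -0.90 for DMF, -0.41 for MMF and -1.15 for CBD. The time in culture and the change of serum cannot be told apart in this comparison. These 6 comparisons share no libraries. In all 6, 37 of the 41 members had a negative log2 change, against 28.1% of the genes tested in all 6. Of the 41, 22 were called lower in all 6, against 12.3% of those genes: Orc6, Mcm2 to Mcm7, Mcm10, Cdc45, Gins2, Gins4, Pcna, Rfc2, Rfc5, Pola2, Prim1, Fen1, Rpa2, Rrm1, Rrm2, Tyms and Dut.

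The genes that fell most differed by treatment. With the vehicles they included Tyms, at 683, 603 and 593 with DMSO at 4 h and 357, 335 and 312 at 24 h (log2 -0.92), and with EtOH 730, 725 and 765 at 4 h and 379, 328 and 265 at 24 h (log2 -1.23). The 4 h libraries of Tyms were all above the 24 h libraries in both. Prim1, the primase, read 1108, 929 and 1064 at 4 h and 682, 472 and 505 at 24 h with DMSO (log2 -0.94), and Mcm6 5668, 4814 and 4953 at 4 h and 3031, 2490 and 2710 at 24 h (log2 -0.93). With EtOH Rpa2 fell from 1693, 1501 and 1634 to 925, 837 and 616 (log2 -1.06). Fen1 was a leading gene with EtOH, LPS, DMF and MMF (log2 -1.11, -0.78, -1.41 and -0.71). At 65.9% of its exon bases Fen1 overlaps genes on the other strand.

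With LPS alone Cdc45 read 835, 760 and 757 at 4 h and 509, 419 and 538 at 24 h (log2 -0.69), and Pcna 1964, 1666 and 1820 at 4 h and 1189, 1054 and 1141 at 24 h (log2 -0.69). Both were apart at the times compared. With MMF and LPS Prim1 changed by -0.73 and Cdc45 by -0.67, and with DMF and LPS Gins2 by -1.34 and Rrm1 by -1.21. CBD with LPS included the largest fall of the 6 comparisons, Rrm2 from 4804, 4590 and 4768 to 1362, 947 and 892 (fold 0.221, log2 -2.18, SE 0.138, adjusted p = 1.67e-06, limma), Uhrf1 from 3033, 2904 and 2755 to 1029, 862 and 841 (log2 -1.68) and Rrm1 from 4276, 3849 and 4269 to 1588, 1190 and 1166 (log2 -1.67). Gins3 with CBD read 452, 412 and 463 at 4 h and 521, 505 and 587 at 24 h (log2 0.27, SE 0.0975, adjusted p = 0.0344, limma). That call was lost without CBD 24 h replicate 1 (adjusted p = 0.0592), CBD 24 h replicate 3 (0.115), CBD 4 h replicate 1 (0.0627) or CBD 4 h replicate 2 (0.111) in limma. Tk1 did not follow the set with LPS (log2 0.21), DMF (log2 -0.20) or MMF (log2 0.10), where it was not called.

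Whether an effect changed between 4 h and 24 h was tested as an interaction over 12 libraries. The CBD effect was more negative at 24 h for 34 of 41 genes and more positive for 1, Gins3, where 16.5% and 15.5% of all genes tested were called in those directions. The median change was -0.74 on the log2 scale. The DMF effect was more negative for 19 of 41 (8.15% of all genes), with a median of -0.51, and that of MMF changed for 0 of 41 (0% of all genes), with a median of -0.03 and widest 95% limits of -0.76 and 0.692. DESeq2 and edgeR also called 0 for MMF, and 0 members had an unadjusted p below 0.05. The DMF count was 10 to 12 when DMF replicate 2 or 3, or LPS replicate 1 or 3, of 24 h, or DMF replicate 3 of 4 h, was left out. Among the 26 members with at most 10% overlap or copies, 22 were called for CBD, Gins3 included, and 12 for DMF.

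The LPS effect was more positive at 24 h for 3 of 41 in the DMSO comparison (close to the 4.98% of all genes), Pold1, Tk1 and Pold2, and for 8 of 41 in the EtOH comparison (4.69%), Pold1, Tk1, Tyms, Uhrf1, Gins1, Rrm2, Mcm6 and Cdc6. The medians over the 41 were 0.28 and 0.35 on the log2 scale. With DMSO the count rose to 11 when LPS replicate 2 of 24 h was left out and was 5 without DMSO replicate 4 of 24 h, LPS replicate 1 of 4 h or DMSO replicate 5 of 4 h. With EtOH it was 13 without LPS replicate 2 of 24 h and 1 without LPS replicate 3 of 24 h. It was 2 to 4 without LPS replicate 1, EtOH replicate 5 or EtOH replicate 6 of 24 h, or LPS replicate 2, LPS replicate 3, EtOH replicate 4 or EtOH replicate 6 of 4 h.

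Gene lists around the 41 were read in the same fits. With CBD at 24 h, 24.8% of all genes tested were called lower and 23.9% higher. With DMF 13.2% were called lower, that is 1536 of 11670 genes, among 2926 called in either direction. Among 44 other replication factors at 24 h, 33 were lower and 3 higher with CBD and 26 lower and 0 higher with DMF against LPS (median log2 -0.52 and -0.41). Recql4, a RecQ-family helicase, rose most with CBD (log2 1.05) and Dscc1, part of an alternative clamp loader, fell most (log2 -1.32). With DMF Chtf18 of the same loader fell most (log2 -0.76). Of 32 other nucleotide synthesis genes, 23 were lower and 2 higher with CBD, led by the IMP dehydrogenase gene Impdh2 (log2 -1.09) and by mitochondrial Tk2 (log2 0.81), and 15 were lower and 3 higher with DMF, where Nme2, a nucleoside diphosphate kinase, rose most (log2 0.82).

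Of 21 G1 to S regulators, 16 were lower with CBD and 9 with DMF, in each case most the inhibitor Cdkn2c (log2 -1.82 and -0.91), and 0 were higher. All 20 mitosis genes were lower with each drug, with medians of -1.21 for CBD and -0.77 for DMF. Kif20a, a kinesin of cytokinesis, fell most with CBD (log2 -1.56) and Cenpf, a kinetochore protein, with DMF (log2 -1.22). With MMF at 24 h 0 genes of these 4 lists were called by limma, and 1 other replication factor and 1 mitosis gene had an unadjusted p below 0.05. Between the esters at 24 h, 18 of 20 mitosis genes, 14 of 44 other replication factors, 12 of 32 nucleotide synthesis genes and 8 of 21 G1 to S regulators were lower with DMF, while 1 replication factor and 3 nucleotide synthesis genes were higher. In that fit 11.4% of all genes tested were called lower, that is 1335 of 11665 genes, among 2508 called in either direction.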

How the data were processed

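Reads of poly(A) RNA from 36 BV-2 libraries were cleaned with cutadapt 4.4 and Trimmomatic 0.39, aligned to GRCm39 with HISAT2 2.2.1 and counted on Ensembl genes with HTSeq 2.0.3, per the submitters' notes. The authors then deposited 30 tables, 1 per pair of groups, whose per-library values are signal, namely read counts divided by DESeq2 (1.40.2) size factors. The columns of the tables' own tests (fold changes, errors, p-values) were not used. Whole reads were recovered from 165 of 180 columns by their own step, with 100% of values within 0.01 of a whole read, and 15 columns had a factor within 0.5% of 1.

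The main test was limma 3.58.1 (trended variance, R 4.3.3) on log2(value + 1) over genes with at least 10 normalized reads in 3 libraries, within each pair of groups, with Benjamini-Hochberg adjustment over all genes tested. Interactions used 12 libraries under joint median-of-ratios factors, and edgeR 4.0.16 and DESeq2 1.42.0 ran on recovered reads as alternatives. The other alternatives were TMM scaling, no filter, a pseudocount of 5, all libraries in 1 fit, a replicate block and the omission of each library. The scripts were tested on simulated data. The members, roles and lists were chosen with earlier results of these data known. For each comparison the up to 3 called members with the largest rise and with the largest fall are shown by library, and genes outside the 41 only as the largest called rise and fall of a list, of which 1 is not reported here. Ctps1 and Adss2 were not found under those symbols. P-values measure the spread between 3 libraries per group.

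Exon overlap, copies (150-base windows, at most 3 differences, minimap2 2.31-r1302) and promoters were read from GRCm39 with a later gene annotation, whose start and end equal those in the files at 6 of the 41 members. The replicate numbers were taken to pair libraries where the correlation of same-numbered deviations from the group means was over 0.1 in every pair. This held for DMF, CBD and the vehicles at both times, for MMF at 24 h, for DMF against MMF at 24 h and for 24 h against 4 h with LPS or MMF. LPS and vehicle libraries carry different numbers and could not be paired.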

Additional observations from a re-analysis of the deposited data

Results flagged for a closer look

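The effect of CBD against LPS alone differed between 4 h and 24 h by the interaction test. It was more negative at 24 h for 34 of 41 members (16.5% of all genes tested), led by Rrm2 (log2 -1.85), Cdc6 (log2 -1.504) and Tk1 (log2 -1.47), and more positive for 1 (15.5% of all genes tested), Gins3 (log2 0.57). At 4 h these 4 genes had not been called with CBD. Their calls in the interaction test held without any 1 of the 12 libraries.

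The effect of DMF against LPS alone also differed between the times. It was more negative at 24 h for 19 of 41 members (8.15% of all genes tested), led by Gins2 (log2 -0.88), Orc1 (log2 -0.82) and Pola1 (log2 -0.80). The call of Gins2 was lost without any of 5 libraries, with an adjusted p (limma) from 0.0537 to 0.0694.

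For a minority of members the effect of LPS was called more positive at 24 h than at 4 h. Against DMSO this held for 3 of 41 members, close to the share among all genes tested (4.98%), Pold1 (log2 0.74), Tk1 (log2 0.67) and Pold2 (log2 0.44). Against EtOH it held for 8 of 41 members (4.69% of all genes tested), led by Pold1 (log2 0.68), Tk1 (log2 0.65) and Tyms (log2 0.64). Leaving out 1 library at a time, the EtOH count ranged from 1 to 13. The call of Tyms was lost without any of 8 libraries that of Pold2 without any of 5 and that of Tk1 against EtOH without either of 2. Tk1 and Pold1 were lower with LPS than with either vehicle at 4 h. At 24 h Pold1 was called higher than with either, and Tk1 was not called (log2 0.13 and 0.14). The LPS and vehicle libraries of Pold1 overlapped at 24 h, and each of these calls was lost without any of 4 libraries.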

How the results depend on the processing

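Over the tools and settings other than the omission of a library, 157 counts of called members stayed within 1.5 times the main count and 14 did not, and 0 results reversed. Fitting all libraries together gave 3 members for DMF against LPS at 4 h and 2 for DMF against MMF at 4 h, where the main count was 0. Against EtOH at 24 h, LPS gave 2 members by edgeR, 7 by DESeq2 and 2 with TMM scaling. For the change of the LPS effect, edgeR and DESeq2 each gave 5 against DMSO, and no filter gave 5 against EtOH. The cause was not tested.

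With a replicate block the count was 3 for DMF against LPS at 4 h, 2 for DMF against MMF at 4 h, 8 for DMSO against EtOH at 4 h and 2 for MMF against LPS at 24 h. It was 12 and 13 for the change of the LPS effect against DMSO and EtOH, where libraries were blocked by their number across times and the vehicle libraries did not deviate together. The numbers did not pair the libraries for DMF against MMF at 4 h either. The paired fit moved no other count by over 1.5 times: it gave 39 for DMF against LPS and 37 for DMF against MMF at 24 h.

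Leaving out 1 library at a time, the count ranged from 1 to 3 for LPS against DMSO at 4 h, 2 to 7 for LPS against EtOH at 4 h, 0 to 3 for DMF against LPS at 4 h and 0 to 1 for DMF against MMF at 4 h. At 24 h it ranged from 0 to 14 for LPS against DMSO, 0 to 7 for LPS against EtOH and 5 to 32 for DMF against MMF. For the change of an effect it ranged from 2 to 11 (LPS against DMSO), 1 to 13 (LPS against EtOH) and 10 to 27 (DMF). Against LPS at 24 h it ranged from 37 to 39 for CBD, where the main count was 40. For DMF it ranged from 22 to 37, where the main count was 33. The median of the 41 log2 changes moved by more than the spread between libraries once, to -0.13 for DMSO against EtOH at 4 h without DMSO replicate 4. With 3 libraries per group, a change in a member not called is within the error if it lies inside that member's own interval. The widest limits given above belong to single members and are not a detection limit for the set. For DMF against MMF at 24 h, Rfc1 was called at a log2 difference of -0.30, inside the widest limits of that comparison.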

Other observations

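At 4 h, when none of the 41 members was called with a drug in fits of all 6 libraries of each pair of groups without a block, single genes of the surrounding lists were. With DMF and LPS, Ccnd1, cyclin D1, was lower than with LPS alone (log2 -0.96, adjusted p = 0.000302, limma), and the genes called higher included Mthfd2, a mitochondrial folate enzyme that supplies purine synthesis (log2 0.68, adjusted p = 0.00207), and Dbf4, the activator of the Cdc7 kinase (log2 0.46, adjusted p = 0.0165). Against MMF at the same dose Ccnd1 was lower with DMF (log2 -0.69, adjusted p = 0.00214, limma) and E2f3 higher (log2 0.51, adjusted p = 0.0108).

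E2f2, an activating E2F factor, was lower with LPS than with DMSO (log2 -0.46, adjusted p = 0.0273, limma) or EtOH (log2 -0.61, adjusted p = 0.00726, limma) at 4 h. Under LPS it was higher at 24 h than at 4 h, by 1.06 with LPS alone, 1.19 with DMF, 1.07 with MMF and 0.85 with CBD on the log2 scale. Tk2, the mitochondrial thymidine kinase, was also higher at 24 h than at 4 h in all 6 treatments, by 0.48 (LPS) to 1.29 (CBD) on the log2 scale. The log2 change of its cytosolic counterpart Tk1, a member, was 0.21 with LPS, where it was not called, and -1.26 with CBD.

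Cdkn1b, which encodes the cyclin kinase inhibitor p27, was higher at 24 h than at 4 h with DMSO (log2 0.83) and EtOH (log2 1.55), and lower with LPS than with either vehicle at 24 h (log2 -0.60 and -0.67).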
